A study of Mus musculus with 6 samples.

Results

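The genes described here are 39 enzymes and carriers of folate metabolism, the glycine cleavage system, the methionine cycle and purine and pyrimidine synthesis, chosen by symbol from a list of users of serine carbon. All 39 were found among the 25220 genes of the table. Poly(A) RNA had been sequenced from primary myoblasts, the proliferating muscle precursor cells, taken from mouse hindlimb muscles and kept in Ham's-F10 with 10% horse serum and 2.5 ng/mL bFGF. Psat1 cKO cells (3 libraries) were Psat1fl/fl and carried Pax7 CRE+/-, that is, Cre at the Pax7 locus, the gene of a transcription factor of satellite cells. Ctrl cells (3 libraries) were Psat1fl/fl with Pax7 +/+ and no Cre. The floxed alleles were thus shared by both groups. Cre itself, the Pax7 allele that carries it and the targeting of Psat1 cannot be told apart. Neither the age of the mice nor any induction of Cre is given in the labels.

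Serine hydroxymethyltransferases move a carbon from serine to tetrahydrofolate and leave glycine. In mitochondria that carbon is oxidised step by step to formate, which passes to the cytosol and is spent on purine rings, on the methyl group of thymidylate and on the methionine cycle, whose product S-adenosylmethionine is the cell's main methyl donor. Psat1 is the aminotransferase of the pathway that makes serine, and the comparison asked how transcripts of myoblasts differ where it is targeted. Dividing myoblasts need these routes to copy their DNA.

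Each value is in RPKM, a read count scaled by transcript length and by library size, as deposited by the authors. Steps between the lowest values put the depth at 19500000 to 35400000 reads in Psat1 cKO and 33700000 to 43100000 reads in Ctrl, with Psat1 cKO 3 the shallowest, and 3 reads in a transcript of 1 kb were worth 0.0697 to 0.154 RPKM. Psat1 itself read 63.5, 74.7 and 71.8 RPKM in Psat1 cKO and 91.8, 93.4 and 100.2 RPKM in Ctrl, so transcript of the targeted gene was lower and still present. Which part of Psat1 is floxed is not given in the labels, so these levels do not measure the deletion. The 8 myoblast markers were all expressed, with summed levels of 1483 to 1726 RPKM in Psat1 cKO and 1770 to 2100.1 RPKM in Ctrl, and 2 of them, Pax7, whose locus carries Cre, and Myf5, were lower in Psat1 cKO (log2 fold changes -0.60 and -1.13, limma, adjusted p = 0.00907 and 0.0138). Xist was expressed in Psat1 cKO 1, Psat1 cKO 2 and Ctrl 1 and the Y-linked Ddx3y in Psat1 cKO 3, Ctrl 2 and Ctrl 3, so the libraries of a group were not all repeats of 1 animal.

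None of the folate, methionine cycle and nucleotide genes passed the test between Psat1 cKO and Ctrl. Of the 39, 37 averaged 0.5 RPKM or more and were tested, and 0 of these were called (limma on log2 of RPKM + 0.5, Benjamini-Hochberg adjusted p under 0.05 over 12251 genes), where 2.29% of all genes tested were called, 1.8% higher and 0.49% lower. At an unadjusted p under 0.05 there were 4 members, all lower in Psat1 cKO (Aldh1l2, Mthfd1l, Mat2b and Rrm2), against 14.4% of all genes in either direction, 7.56% higher and 6.82% lower. The authors' deposited table likewise lists 0 members at q under 0.05 and 3 at p under 0.05. Aldh1l1 and Cbs lay below the filter.

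The intervals bound the differences. The median standard error of the 37 log2 fold changes was 0.06. The 95% interval stayed within a 1.5-fold difference of RPKM + 0.5 in both directions for all 37 and within a 1.25-fold difference for 33. On that scale the widest bound was that of Aldh1l2, at 1.36-fold lower. The added 0.5 shrinks the folds of genes near it. For Gldc and Amt, with Ctrl means of 0.757 and 0.585 RPKM, the bounds on RPKM itself are thus wider. With 0.1 added in its place, the Amt estimate went from -0.09 to -0.14. The log2 fold changes of members ran from -0.29 to 0.09 with a median of -0.01, the same as the median of all genes tested (-0.01), and their median size was 0.04 against 0.07 over all genes. The 37 were well expressed, with a median of 26.4 RPKM against 9.55 RPKM over all genes tested, and 27 of them lay above that median of all genes.

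**Figure D1:**
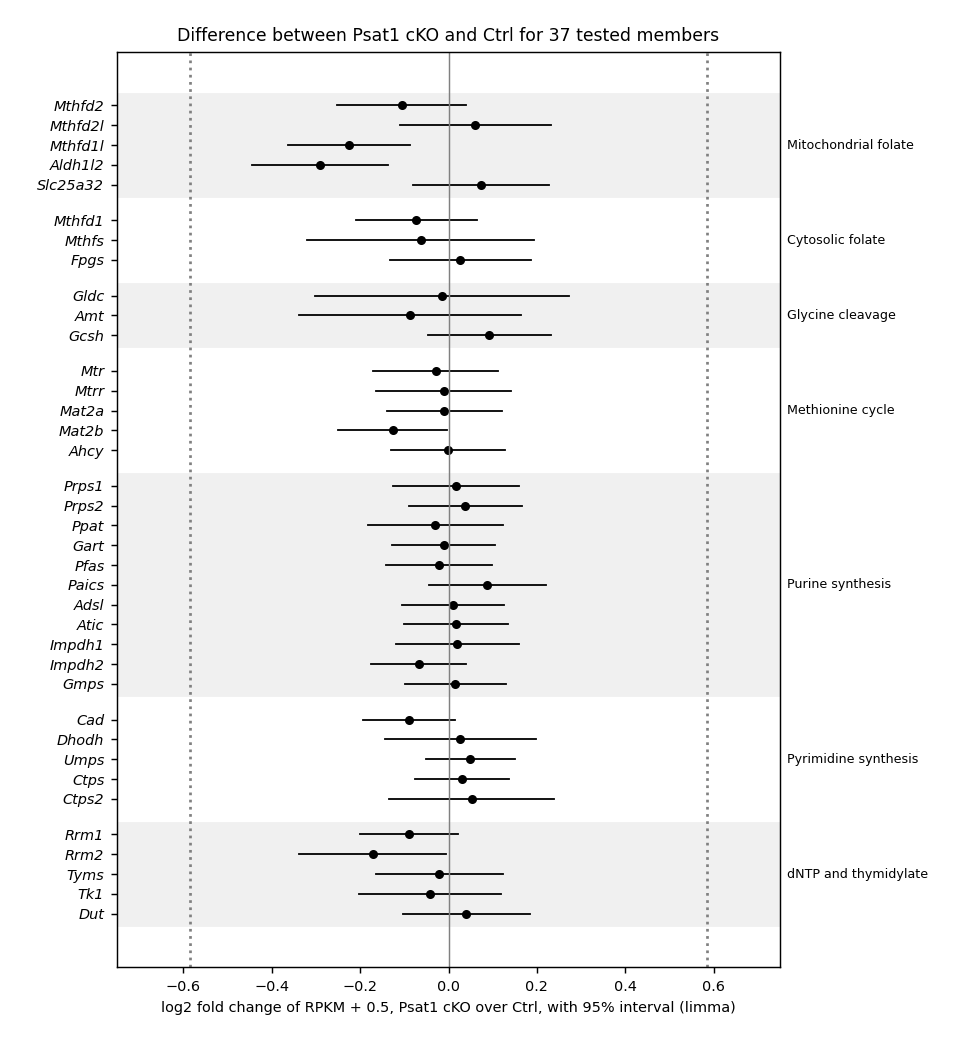
Log2 fold change of RPKM + 0.5 in Psat1 cKO over Ctrl with its 95% interval (limma) for the 37 tested members, grouped by role. Dotted lines mark a 1.5-fold difference of RPKM + 0.5, and n = 3 libraries per group. All intervals lie inside the dotted lines, and those of Aldh1l2, Mthfd1l, Mat2b and Rrm2 lie below 0 before adjustment.

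Promoter windows of RefSeq (GRCm38.p6, 250 bases before to 50 after each start) were found for 35 of the 39 genes. Those of Mthfd1l, among the members with the smallest p, and of Ppat and Paics, whose annotated 5′ ends face and overlap each other by 277 bases, are shown to set beside the levels given further on. In the Ppat and Paics lines capitals mark motif matches. In the Mthfd1l line, which held no match, they mark the bases from the start used for this window on. That start lies within the annotated gene, which begins at 3972892, so part of the lower-case stretch is also inside the gene.
Mthfd1l promoter, chr10:3972825-3973124, plus strand: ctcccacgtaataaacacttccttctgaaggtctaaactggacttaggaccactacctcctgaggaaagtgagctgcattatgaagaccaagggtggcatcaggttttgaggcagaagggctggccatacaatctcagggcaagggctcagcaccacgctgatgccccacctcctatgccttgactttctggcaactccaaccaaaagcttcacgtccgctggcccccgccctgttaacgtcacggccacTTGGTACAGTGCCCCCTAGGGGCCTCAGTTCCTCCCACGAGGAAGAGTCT
Ppat promoter, chr5:76951529-76951828, minus strand: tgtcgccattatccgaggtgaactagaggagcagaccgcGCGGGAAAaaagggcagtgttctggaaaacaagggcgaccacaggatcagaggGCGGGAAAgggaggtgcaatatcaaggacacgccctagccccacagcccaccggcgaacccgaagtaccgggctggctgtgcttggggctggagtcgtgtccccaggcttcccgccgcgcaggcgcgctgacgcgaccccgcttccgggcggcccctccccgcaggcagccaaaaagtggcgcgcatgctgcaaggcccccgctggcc
Paics promoter, chr5:76951052-76951351, plus strand: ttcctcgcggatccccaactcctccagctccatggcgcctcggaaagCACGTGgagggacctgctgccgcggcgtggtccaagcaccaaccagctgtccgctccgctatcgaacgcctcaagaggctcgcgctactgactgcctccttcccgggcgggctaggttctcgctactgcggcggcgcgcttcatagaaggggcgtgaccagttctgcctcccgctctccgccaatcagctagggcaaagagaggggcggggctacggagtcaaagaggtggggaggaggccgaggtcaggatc
The motifs searched on both strands were the E-box CACGTG, read by Myc-family factors, the E2F motif as TTTGGCGC or TTTCCCGC, and the amino acid response element bound by ATF4 as TGATGNAA. The E-box was in the windows of 5 of 35 members (Atic, Cbs, Impdh2, Paics and Tyms) and in 7.15% of all 32851 windows. E2F letters were in those of Ppat and Prps2, and in 1.56% of all windows, with the Ppat matches 211 and 158 bases before its start and the Paics E-box 203 bases before its own. ATF4 letters were in the window of 1 member, Prps1, and in 3.97% of all windows. In a list of Atf4 and its targets, 9 of the 19 genes with a window had them. Members and listed genes were counted once each, with a match in any of their windows, while the shares of all windows count single windows. These matches are letters in a window and not measured binding. Aldh1l2, Slc25a32, Pfas and Dhodh had no window, so their promoters were not searched.

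The mitochondrial folate enzymes held the members closest to the threshold. Aldh1l2, the mitochondrial 10-formyltetrahydrofolate dehydrogenase, which makes NADPH as it releases the carbon as carbon dioxide (GRCm38 chromosome 10, 83487447 to 83534146), stood at 5.36, 5.45 and 4.81 RPKM in Psat1 cKO and at 6.59, 6.23 and 6.59 RPKM in Ctrl. Its groups did not overlap, and Psat1 cKO held 80.5% of the Ctrl mean, but the estimate of -0.29 on the log2 scale (standard error 0.07) did not pass (limma, adjusted p = 0.0779). Over all 16 alternative settings it stayed between -0.32 and -0.24, with adjusted p from 0.0649 to 0.229. The estimate was -0.26 among the libraries with Xist and -0.38 among those with Ddx3y. Ctrl 1 is the only Ctrl library with Xist, and Psat1 cKO 3 the only Psat1 cKO library with Ddx3y. Such estimates, here and below, thus have no measured spread on that side. The authors' deposited table gives a ratio of 0.804 for Aldh1l2 with a q of 0.133. The annotated lncRNA Gm51778 overlaps it.

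Mthfd1l, the mitochondrial formate-releasing synthetase (chromosome 10, 3972892 to 4167081), had 15.6, 17.4 and 16.0 RPKM in Psat1 cKO and 18.3, 19.4 and 19.8 RPKM in Ctrl. All Psat1 cKO libraries were below all Ctrl libraries, with a log2 fold change of -0.22 (standard error 0.06, limma, adjusted p = 0.123). It was -0.14 among the libraries with Xist and -0.29 among those with Ddx3y. The annotated genes Gm16074, Gm40591 and Gm25515 overlap it. Mthfd2, the dehydrogenase and cyclohydrolase that precedes it and the most abundant enzyme of this group, had 49.4, 52.7 and 50.9 RPKM in Psat1 cKO and 53.2, 52.1 and 59.8 RPKM in Ctrl. The Mthfd2 groups overlapped, and Ctrl 3 stood highest. Its paralogue Mthfd2l had 6.72, 6.30 and 7.29 RPKM in Psat1 cKO against 6.77, 6.60 and 6.02 RPKM in Ctrl. Slc25a32, the carrier that brings folate into mitochondria, had 5.26, 5.43 and 5.87 RPKM in Psat1 cKO and 5.20, 5.44 and 5.0001 RPKM in Ctrl. Of the 5 genes, 3 had a negative and 2 a positive log2 fold change.

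None of the 3 tested cytosolic folate genes had an unadjusted p under 0.05. Mthfd1, the cytosolic enzyme that joins formate to tetrahydrofolate and carries it on to the other folate forms, had 28.2, 30.9 and 30.1 RPKM in Psat1 cKO and 30.7, 29.95 and 33.3 RPKM in Ctrl, overlapping, with a log2 fold change of -0.07 (95% interval -0.21 to 0.06). Fpgs, which adds glutamates to folate and keeps it in the cell, averaged 12.1 ± 0.845 RPKM in Psat1 cKO and 11.9 ± 0.693 RPKM in Ctrl (SD, n = 3 each). Mthfs, which returns 5-formyltetrahydrofolate to use, averaged 2.78 ± 0.302 RPKM in Psat1 cKO and 2.94 ± 0.399 RPKM in Ctrl. Aldh1l1, the cytosolic counterpart of Aldh1l2, read 0.0631, 0.0660 and 0.147 RPKM in Psat1 cKO and 0.0755, 0.0726 and 0.0515 RPKM in Ctrl, near or below the worth of 3 reads in 1 kb, so no fold is given. Of these counterparts, the mitochondrial gene was thus the expressed one.

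**Figure D2:**
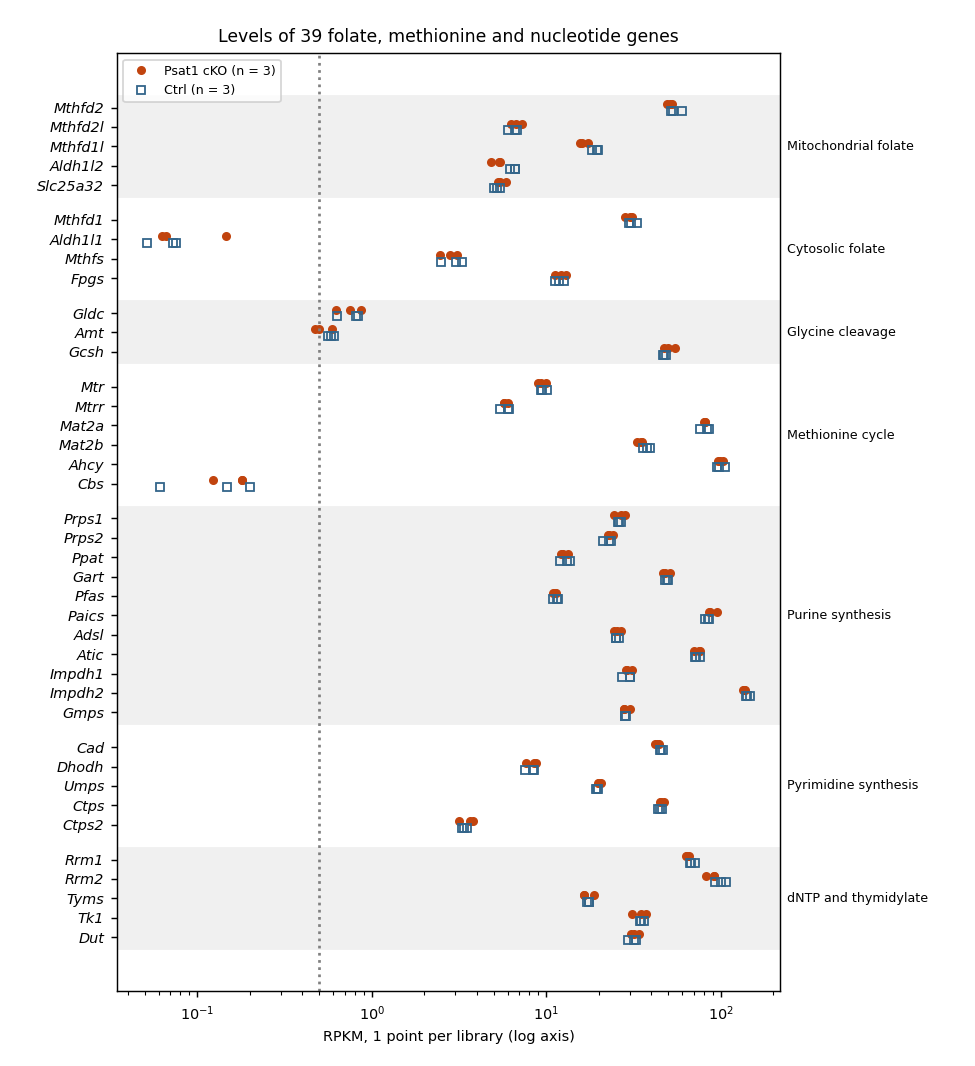
RPKM of the 39 genes in each library on a log axis, grouped by role, with Psat1 cKO as filled circles and Ctrl as open squares (n = 3 each); the dotted line marks 0.5 RPKM, the mean a gene needed to be tested. Levels span from under 0.2 RPKM for Aldh1l1 to above 130 RPKM for Impdh2, and the points of both groups overlap or lie close together in the 37 tested genes, with a wider spread in Aldh1l1 and Cbs.

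The glycine cleavage system splits glycine in mitochondria and hands its carbon to folate, and its parts were very unequally expressed. Gcsh, the lipoate-bearing carrier protein, had 47.2, 50.1 and 54.5 RPKM in Psat1 cKO and 47.2, 46.5 and 48.3 RPKM in Ctrl. Gldc, the glycine decarboxylase, averaged 0.745 ± 0.122 RPKM in Psat1 cKO and 0.757 ± 0.111 RPKM in Ctrl (SD, n = 3 each). Amt, the aminomethyltransferase, had 0.595, 0.472 and 0.499 RPKM in Psat1 cKO and 0.608, 0.581 and 0.565 RPKM in Ctrl. The carrier was above 46 RPKM, while the decarboxylase and the transferase were under 1 RPKM in every library of both groups. Log2 fold changes were 0.09 for Gcsh (adjusted p = 0.542, limma), -0.01 for Gldc (adjusted p = 0.972) and -0.09 for Amt (adjusted p = 0.771).

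In the methionine cycle, all 5 tested genes had a log2 fold change at or just below 0. Mat2b, the regulatory subunit of S-adenosylmethionine synthetase, had 35.2, 33.1 and 35.0 RPKM in Psat1 cKO and 39.3, 35.7 and 38.0 RPKM in Ctrl. The groups were separated by less than 1 RPKM, and the log2 fold change of -0.13 (standard error 0.05) did not pass (limma, adjusted p = 0.334). It was -0.20 among the libraries with Xist and -0.07 among those with Ddx3y. Its catalytic partner Mat2a had 81.3, 80.5 and 80.9 RPKM in Psat1 cKO and 83.9, 85.1 and 75.6 RPKM in Ctrl, with overlap and a log2 fold change of -0.01. Ahcy, which clears S-adenosylhomocysteine, was the most abundant gene of the cycle, at 96.7, 99.1 and 103 RPKM in Psat1 cKO and 98.05, 95.7 and 106 RPKM in Ctrl. Mtr, the methionine synthase, averaged 9.42 ± 0.513 RPKM in Psat1 cKO and 9.61 ± 0.406 RPKM in Ctrl, and Mtrr, the reductase that reactivates it, 5.82 ± 0.200 RPKM in Psat1 cKO and 5.88 ± 0.370 RPKM in Ctrl (SD, n = 3 each). Cbs, which takes homocysteine out of the cycle by joining it to serine, was at 0.181, 0.179 and 0.123 RPKM in Psat1 cKO and at 0.201, 0.0607 and 0.148 RPKM in Ctrl, values too low to test.

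In de novo purine synthesis 11 of 11 genes were tested, none passed, and log2 fold changes ran from -0.07 to 0.09. Prps1 and Prps2, the X-linked synthetases of phosphoribosyl pyrophosphate, were at similar levels. Prps1 had 24.4, 27.0 and 28.3 RPKM in Psat1 cKO and 25.7, 26.2 and 26.7 RPKM in Ctrl, and Prps2 had 22.7, 22.6 and 24.1 RPKM in Psat1 cKO and 23.4, 23.0 and 21.3 RPKM in Ctrl. In neither gene did the libraries with Xist stand apart from those with Ddx3y.

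Ppat, the amidotransferase of the committed step, had 12.5, 12.1 and 13.4 RPKM in Psat1 cKO and 13.7, 12.01 and 13.1 RPKM in Ctrl (log2 fold change -0.03, 95% interval -0.18 to 0.12). Paics, which carries out later steps of the ring and starts beside Ppat on chromosome 5, had 85.7, 86.4 and 95.6 RPKM in Psat1 cKO and 85.4, 81.1 and 85.1 RPKM in Ctrl. Its groups did not overlap, but Psat1 cKO 1 exceeded Ctrl 1 by less than 1 RPKM, and the log2 fold change of 0.09 did not pass (limma, adjusted p = 0.547). The level of Paics over that of Ppat was 6.85, 7.15 and 7.14 in Psat1 cKO and 6.23, 6.75 and 6.49 in Ctrl, for the pair whose starts are shown above. Whether counting used strand is not given in the sources used here, so reads from the 277 shared bases cannot be assigned.

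Among the other enzymes of the ring, Gart averaged 48.5 ± 2.18 RPKM in Psat1 cKO and 48.9 ± 1.10 RPKM in Ctrl, and Adsl 25.7 ± 1.09 RPKM in Psat1 cKO and 25.5 ± 0.619 RPKM in Ctrl (SD, n = 3 each). Atic, which closes the ring with a folate carbon, averaged 73.8 ± 2.75 RPKM in Psat1 cKO and 73.0 ± 2.67 RPKM in Ctrl. Pfas, the lowest of the route, had 11.4, 10.9 and 11.3 RPKM in Psat1 cKO and 10.9, 11.7 and 11.5 RPKM in Ctrl. At the branch to guanine nucleotides, Impdh2, the highest of all 39 genes, had 136, 138 and 134 RPKM in Psat1 cKO and 140.1, 141 and 147 RPKM in Ctrl. The Impdh2 groups did not overlap, with a log2 fold change of -0.07 (standard error 0.05, limma, adjusted p = 0.565). Impdh1 had 28.5, 30.9 and 29.2 RPKM in Psat1 cKO and 27.1, 30.1 and 30.2 RPKM in Ctrl, and Gmps, which follows, averaged 28.8 ± 1.36 RPKM in Psat1 cKO and 28.5 ± 0.284 RPKM in Ctrl.

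None of the 5 genes of pyrimidine synthesis passed the test or had an unadjusted p under 0.05. Cad, the protein that carries its first 3 activities, had 41.9, 44.1 and 42.9 RPKM in Psat1 cKO and 44.8, 46.9 and 45.6 RPKM in Ctrl, lower without overlap but not past the threshold (log2 fold change -0.09, limma, adjusted p = 0.433). Umps, which makes UMP, had 19.9, 20.1 and 20.5 RPKM in Psat1 cKO and 19.2, 19.5 and 19.7 RPKM in Ctrl, higher without overlap and likewise not past it (log2 fold change 0.05, adjusted p = 0.671). Dhodh, the mitochondrial dehydrogenase between them, averaged 8.31 ± 0.569 RPKM in Psat1 cKO and 8.14 ± 0.549 RPKM in Ctrl. Ctps, the main CTP synthase, had 45.5, 47.1 and 44.8 RPKM in Psat1 cKO and 45.0, 43.6 and 45.9 RPKM in Ctrl. Its X-linked paralogue Ctps2 had 3.67, 3.17 and 3.82 RPKM in Psat1 cKO and 3.39, 3.31 and 3.50 RPKM in Ctrl, so Ctps was the higher of the pair in every library.

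Among the genes that make deoxynucleotides, the ribonucleotide reductase subunits had the largest differences. Rrm2, the radical-bearing subunit expressed in S phase (chromosome 12, 24708254 to 24714146), had 82.3, 91.9 and 91.8 RPKM in Psat1 cKO and 92.3, 100.5 and 107 RPKM in Ctrl. Psat1 cKO 2 and Ctrl 1 differed by less than 1 RPKM, and the estimate of -0.17 on the log2 scale (standard error 0.07) did not pass (limma, adjusted p = 0.332). Among the libraries with Xist it was -0.08 and among those with Ddx3y -0.18. Rrm1, the catalytic subunit, had 64.4, 63.1 and 66.0 RPKM in Psat1 cKO and 67.7, 66.8 and 71.5 RPKM in Ctrl (log2 fold change -0.09, adjusted p = 0.454). Tyms, which uses a folate carbon to make thymidylate, had 16.5, 16.4 and 18.7 RPKM in Psat1 cKO and 17.2, 17.6 and 17.5 RPKM in Ctrl. Tk1, the salvage kinase for thymidine, averaged 34.4 ± 3.08 RPKM in Psat1 cKO and 35.3 ± 0.951 RPKM in Ctrl, and Dut, which removes dUTP, 32.2 ± 1.86 RPKM in Psat1 cKO and 31.3 ± 1.68 RPKM in Ctrl (SD, n = 3 each). None of 25 genes of DNA replication passed the test (2 at an unadjusted p under 0.05), with a median log2 fold change of -0.03.

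Counted by whether the values of the groups overlapped, 7 tested members were lower in Psat1 cKO with no overlap (Aldh1l2, Mthfd1l, Mat2b, Impdh2, Cad, Rrm1 and Rrm2) and 2 were higher (Paics and Umps). Over all genes tested, 10.5% were lower and 10.0% higher in this way. In bulk RNA, fewer cells of a type and less transcript per cell cannot be told apart.

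Ratios between paired genes within a library, which remove whatever scales a library as a whole, were compared for 8 pairs on log2 of RPKM + 0.5. The Mthfd1 to Mthfd1l ratio, cytosolic over mitochondrial, was 0.83, 0.81 and 0.89 in Psat1 cKO and 0.74, 0.61 and 0.73 in Ctrl, higher in all 3 Psat1 cKO libraries by 0.15 on average. That of Aldh1l2 to Aldh1l1 was lower by 0.35 on average without overlap, but Aldh1l1 was near its floor and the value rests on the pseudocount. For both pairs the exact permutation test, two-sided, gave p = 0.1, the smallest that 3 against 3 libraries allow, and an adjusted p of 0.4 over the 8 pairs. The other 6 pairs overlapped between groups. Mthfd2 over Mthfd2l averaged 2.83 in Psat1 cKO and 2.99 in Ctrl, and Impdh2 over Impdh1 2.19 in Psat1 cKO and 2.27 in Ctrl. Ctps over Ctps2 averaged 3.52 in Psat1 cKO and 3.54 in Ctrl, and Prps1 over Prps2 0.19 in Psat1 cKO and 0.21 in Ctrl. For the subunits, Rrm2 over Rrm1 averaged 0.45 in Psat1 cKO and 0.54 in Ctrl, and Mat2a over Mat2b 1.22 in Psat1 cKO and 1.10 in Ctrl. The exact p of these 6 pairs was 0.2 or more.

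**Figure D3:**
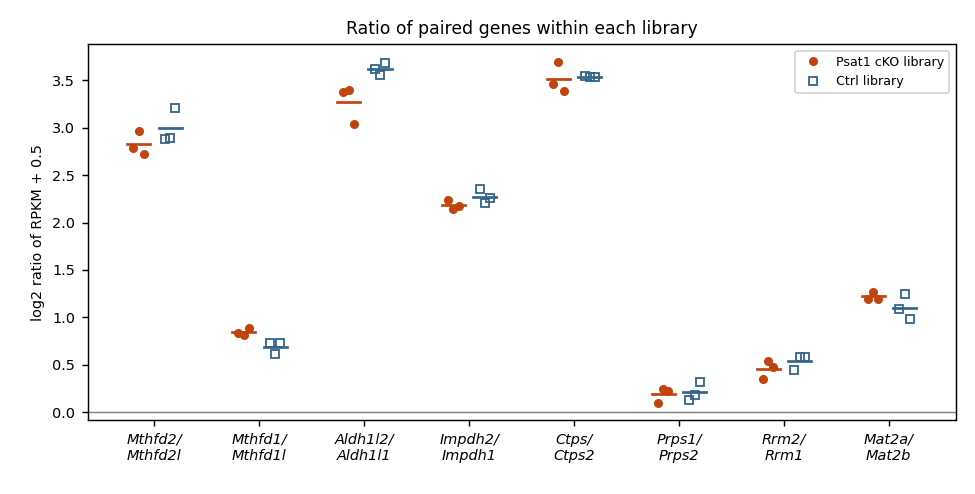
Log2 ratio of RPKM + 0.5 between paired genes in each library (filled circles Psat1 cKO, open squares Ctrl, lines the means of 3 libraries). The Mthfd1 to Mthfd1l ratio lies at 0.81 to 0.89 in Psat1 cKO and 0.61 to 0.74 in Ctrl, and the Aldh1l2 to Aldh1l1 points are also apart, while the other 6 pairs overlap.

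Among 75 tested genes of the other folate, methionine, purine, pyrimidine and deoxynucleotide lists, 2 were called (2.67%), close to the 2.29% called over all genes. These were Folr1 and Nnmt, both higher in Psat1 cKO, and Folr1 had a mean above the filter only because of its Psat1 cKO values, so its test adds no support. Folr1, folate receptor alpha, a membrane protein that binds folate outside the cell (chromosome 7, 101858331 to 101870788), had 0.905, 0.883 and 1.27 RPKM in Psat1 cKO and 0.0211, 0.0180 and 0.0493 RPKM in Ctrl. Every Psat1 cKO library was far above every Ctrl library, and the Ctrl values lay below the worth of 3 reads in 1 kb. On log2 of RPKM + 0.5 it was higher by 1.51 (standard error 0.14; adjusted p from limma 0.00807). That value depends on the pseudocount, being 3.10 with 0.1 and 0.97 with 1. Within the libraries with Xist the difference was 1.42 and within those with Ddx3y 1.73. The annotated lncRNA Gm35597 overlaps Folr1. The Folr1 call was lost without a filter (adjusted p = 0.0584), and without any one of the Psat1 cKO libraries, or with the filter at 2 RPKM, its mean was too low to be tested. Its neighbour in the folate receptor family, Folr2, was at 0.0851, 0.234 and 0.154 RPKM in Psat1 cKO and 0.134, 0.171 and 0.226 RPKM in Ctrl. The reduced folate carrier Slc19a1 and the proton-coupled carrier Slc46a1, the other routes of entry, were not called.

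Nnmt, the nicotinamide methyltransferase, which spends S-adenosylmethionine (chromosome 9, 48538002 to 48607655), had 9.86, 9.74 and 10.5 RPKM in Psat1 cKO and 8.22, 6.40 and 6.98 RPKM in Ctrl. It rose without overlap, by 0.46 on the log2 scale (standard error 0.09; adjusted p from limma 0.0452), a call that was lost without any library other than Ctrl 1, with adjusted p of 0.0987 to 0.144 in those 5 fits. The Nnmt difference was 0.24 among the libraries with Xist and 0.61 among those with Ddx3y. Markers of fibro-adipogenic progenitors, stromal cells of muscle, rose in the same libraries. Of 10 listed, 6 were tested and 4 rose (Pdgfra, Cd34, Smoc2 and Mfap5), while Dcn (adjusted p = 0.1004, limma) and Ly6a (adjusted p = 0.659) did not pass, and all 6 log2 fold changes were positive. The summed level of the 10 was 25.7 to 37.1 RPKM in Psat1 cKO and 10.1 to 12.2 RPKM in Ctrl. Of the 4 below the filter, Col15a1 and Lum were detected in every library, and Dpt and Pi16 were listed at 0 in all but 1 library each. Of the smooth muscle and pericyte markers 2 of 5 tested rose. The endothelial, immune and Schwann cell markers gave 0 calls among 2, 3 and 2 tested. At an unadjusted p under 0.05, 1 endothelial marker was higher and 1 immune marker lower in Psat1 cKO. Their part in the levels of Folr1 and Nnmt was not tested.

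**Figure D4:**
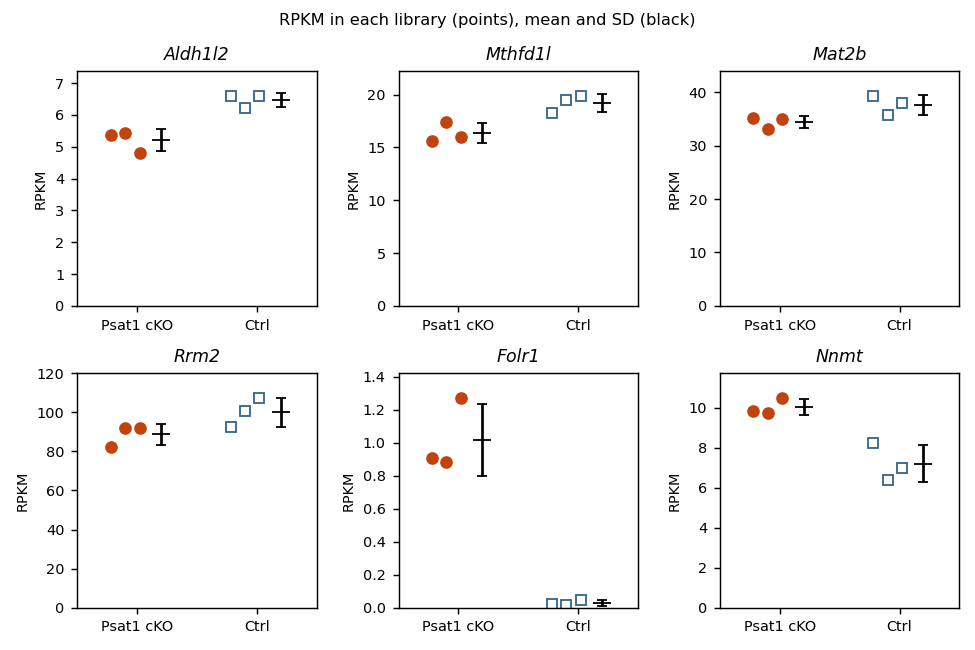
RPKM in each library for the members with the smallest p (Aldh1l2, Mthfd1l, Mat2b, Rrm2) and for the other pathway genes that were called (Folr1, which was tested only through its Psat1 cKO values, and Nnmt), with mean and SD in black (n = 3 per group). Folr1 reads 0.883 to 1.27 RPKM in Psat1 cKO and no more than 0.0493 in Ctrl, and the 4 members differ from Ctrl by a smaller part of their level.

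The rest of these lists held 0 calls among the genes tested. Beside Folr1, the folate and glycine list (14 tested, 1 called, median log2 fold change 0.01) had Sardh, sarcosine dehydrogenase, at 0.20 (adjusted p = 0.399) and Shmt2, the mitochondrial hydroxymethyltransferase that feeds the route, at -0.13 (adjusted p = 0.3999). Shmt2 had 79.6, 84.9 and 85.3 RPKM in Psat1 cKO and 85.5, 90.3 and 98.7 RPKM in Ctrl. The methionine list (21 tested, 1 called) had Mmachc, which processes cobalamin, at -0.24 (adjusted p = 0.0885). Of 21 tested purine salvage and conversion genes 0 were called and 3 had an unadjusted p under 0.05, with Adk, adenosine kinase, at 0.26 (adjusted p = 0.0705, called with array weights) and the nucleotidase gene Nt5c2 at -0.23 (adjusted p = 0.136). Of 8 tested pyrimidine salvage and transport genes 0 were called and 1 had an unadjusted p under 0.05, Upp1, uridine phosphorylase, at 0.40 (adjusted p = 0.213), followed in p by the nucleoside transporter Slc29a2 at -0.21. Of 11 deoxynucleotide genes 0 were called and 1 had an unadjusted p under 0.05, Txnrd1, thioredoxin reductase, at 0.16 (adjusted p = 0.326), followed by the dNTP hydrolase Samhd1 at -0.18. All p-values here are from limma over all genes tested.

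Aldh1l2 and Mthfd2 are also known to respond to ATF4, a stress-induced transcription factor. A list of Atf4 itself and other ATF4 targets held 0 calls among 20 genes. Their log2 fold changes were negative in 16 of 20, with a median of -0.17. At an unadjusted p under 0.05 there were 6, all of them lower in Psat1 cKO. Over all genes tested 54.1% of log2 fold changes were negative, and 6.82% were lower at that p. Trib3, a pseudokinase induced in the stress response, was at -0.34 (limma, adjusted p = 0.0779) and Atf3 at -0.32 (adjusted p = 0.110). The part of ATF4 in the levels of Aldh1l2 and Mthfd2 was not tested. In the serine synthesis list Psat1 alone was called, at -0.44 (adjusted p = 0.0225), with Psph at -0.14 (adjusted p = 0.241), and leaving out any library but Psat1 cKO 1 ended the Psat1 call, with an adjusted p of 0.0517 to 0.0834.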

How the data were processed

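Per the labels' protocols, Trizol RNA (500 ng a sample) went into poly(A) selection and NEBNext Ultra II libraries. Tools listed in the submitters' processing notes are Partek, TopHat2 2.1.1 and Trim Galore 0.6.6, and the build is mm10 (GRCm38). The sources used here do not say how genes were annotated and counted. The authors deposited RPKM values for 6 libraries and a second table of their comparison, with log2 group means, p-values, q-values, a ratio and a signed fold change (score), per the file headers. Of 3695 genes without a p-value there, 3546 were at 0 in every library. The authors' sheets of enriched terms were not used.

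Libraries were grouped by title. The labels do not say that replicates came from separate animals. Levels of Xist and Ddx3y show at least more than 1 animal in each group, but not whether every library had its own, so the p-values speak to differences among these libraries. Genes averaging 0.5 RPKM or more were fitted with limma 3.58.1 in R 4.3.3 (eBayes with a variance trend, no block) on log2 of RPKM + 0.5. Because RPKM are not counts, no count test was run. Steps of 1 read in 2413 single-exon genes of GENCODE M21 gave the depth, but only 45.1% to 51.8% of low values lay within 0.05 of a whole read, so reads were not recovered. Floors cover counting error only. The code was tested on simulated data. Overlapping or near-identical genes may share reads.

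Members, lists and tests were chosen with earlier results of these data known. All members are named, with values in every library for those at an unadjusted p under 0.05, the paired genes and the highest and lowest of each role, and beyond them the genes called in each list or else its 2 smallest p. Paics, Ppat, Cad, Umps, Folr2, Shmt2 and the stromal markers below the filter were named after their values were seen. Alternatives were pseudocounts of 0.1 and 1, no filter, a filter at 2 RPKM, unweighted TMM factors, quantile normalization, a replicate block, no trend, array weights, a term for Xist and each library left out. Python 3.11.15, pandas 2.3.3, numpy 2.4.6, scipy 1.17.1 and matplotlib 3.10.9 handled tables, exact tests and plots.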

Additional observations from a re-analysis of the deposited data

How the results depend on the processing

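No member was called in any of the 16 alternatives, where the lowest adjusted p (limma) was 0.0649, for Aldh1l2. Over 590 fits of members the estimate shifted by at most 0.09, and 51 fits of 19 members changed sign, to a size of no more than 0.06. The estimate moved by more than its standard error in 1 fit, that of Tk1 without Psat1 cKO 1 (0.03). Changes of the filter, the replicate block and the trend alter only the p-value, so the estimates of those fits repeat the reported ones. Over all genes, 220 were higher and 60 lower. Without a filter, which tested 20767 genes, 1 was higher, 3 were lower and 0 of the other pathway genes were called, against 3 (Psat1, Folr1 and Nnmt) in the reported fit. With the replicate number as a block 121 were lower and Nnmt lost its call (adjusted p = 0.0504). Deviations of same-numbered libraries correlated at 0.20, -0.03 and 0.17, and those of differently numbered libraries at -0.21 to 0.07. Replicates 1 and 3 matched best by number and replicate 2 did not. Libraries that both had Xist or both had Ddx3y correlated at 0.03 to 0.20, and mixed pairs at -0.21 to -0.01. The same-numbered libraries were alike in this for replicates 1 and 3 and differed for replicate 2. The correlations thus followed Xist and Ddx3y in every pair, and they do not settle whether the numbers pair the libraries. Psat1 cKO 2 correlated better with Ctrl 1 (0.07) than with Ctrl 2. The term for Xist left 1 other pathway gene called, with adjusted p of 0.0532 for Psat1 and 0.0917 for Nnmt. Nnmt also lost its call without a filter, without a variance trend and with array weights (adjusted p = 0.159, 0.0678 and 0.0694), the last of which called Adk. Leaving out 1 library gave 49 to 173 genes higher, 12 to 55 lower and 0 to 2 other pathway genes called, with fewer samples in each fit. Over 72 settings of the 8 paired ratios none moved the difference by more than the larger SD of the groups, but 7 moved it by more than the smaller SD (2 for Aldh1l2 over Aldh1l1, 3 for Ctps over Ctps2 and 2 for Mat2a over Mat2b). The difference ran from -0.49 (pseudocount 0.1) to -0.23 for Aldh1l2 over Aldh1l1, and from -0.24 to -0.06 (without Ctrl 3) for Mthfd2 over Mthfd2l. In 4 settings it changed sign, for Ctps over Ctps2 (-0.11 to 0.04) and Prps1 over Prps2 (-0.06 to 0.03). The replicate block, counted among the 72 settings, could not move a difference and repeats the reported value for each pair.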
